A study of Mus musculus with 12 samples.

Results

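The untreated wild-type dendritic cells described here are 2 libraries of the 12 samples in the series, and 2 of the 8 samples that had a column in the deposited table of expression levels. They were chosen by their labels alone, which give the genotype as wild type and the condition as dendritic cells without lysate, and no measured value took part in the choice. The study grew dendritic cells from mouse bone marrow with the growth factor GM-CSF, from wild-type mice or from mice without Ythdf1, a protein that binds RNA carrying the m6A modification. Cells were kept alone or given necrotic B16-OVA, a melanoma line that carries ovalbumin, and Ythdf1-bound RNA was also pulled down for sequencing. The growth text shared by all samples describes overnight culture with the dead melanoma cells, while the condition label of these 2 libraries is cells alone. All dendritic cells were purified before RNA extraction by a method that the labels leave unnamed, and libraries were made with a stranded mRNA kit. The labels used here give neither strain, sex nor age of the mice, and nothing says that the 2 libraries came from separate mice or cultures. The spread between them may therefore be technical. The levels are described without a contrast to the other groups, and no test was run.

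Dendritic cells take up material from their surroundings, cut its proteins in acid compartments, load the peptides on major histocompatibility complex (MHC) molecules and show them to T cells. On maturation they gain the lymph node homing receptor Ccr7 and surface costimulators. Marrow cultured with GM-CSF, a cytokine that acts through the receptor chains encoded by Csf2ra and Csf2rb, is known to give a mixture of dendritic cells of monocyte type and macrophage-like cells, along with some granulocytes. In such bulk RNA, fewer cells of a type and less RNA per cell cannot be told apart.

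Each library held 1 log2 level for each of 11786 genes, of which 11744 could be given a symbol. The values were read as the regularized log2 counts of DESeq2, a scale on which 1 unit is a doubling and on which genes with few reads are pulled towards their mean over all 8 libraries of the table. A low level here is thus partly set by the other groups, and a gene without reads cannot be recognised from its level alone. The number of reads per library is unknown. The scale does not correct for transcript length, so ranks, and words such as highest or lowest, describe the deposited level as it stands and not the amount of transcript. Which of 2 genes had more transcript is stated only from the level per kb. That level was computed with 3 choices of length (the median transcript, the longest transcript and the transcripts matched to RefSeq), is given as the range over the 3, and is used to order genes only where their ranges do not overlap.

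The levels spanned 14.07 log2 units, from 3.51 to 17.58, with a median of 8.54 in library 1 and 8.55 in library 2. The middle of the distribution was broad, and 17.7% of genes lay between 9 and 10, while 8.22% lay between 5 and 6. The top 10% of genes, 1179 in number, began at a level of 11.19, and the lowest 25% ended at 6.89. These edges serve below to place each gene list, which by definition hold 10% and 25% of all genes. On the linear scale, the 10 highest genes held 10.0% of the summed level, the highest 100 held 26.9% and the highest 1000 held 58.7%. Per kb of transcript, the highest 100 genes held 28.9% with the median transcript length, 36.1% with the longest and 35.1% with RefSeq-matched transcripts.

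**Figure D1:**
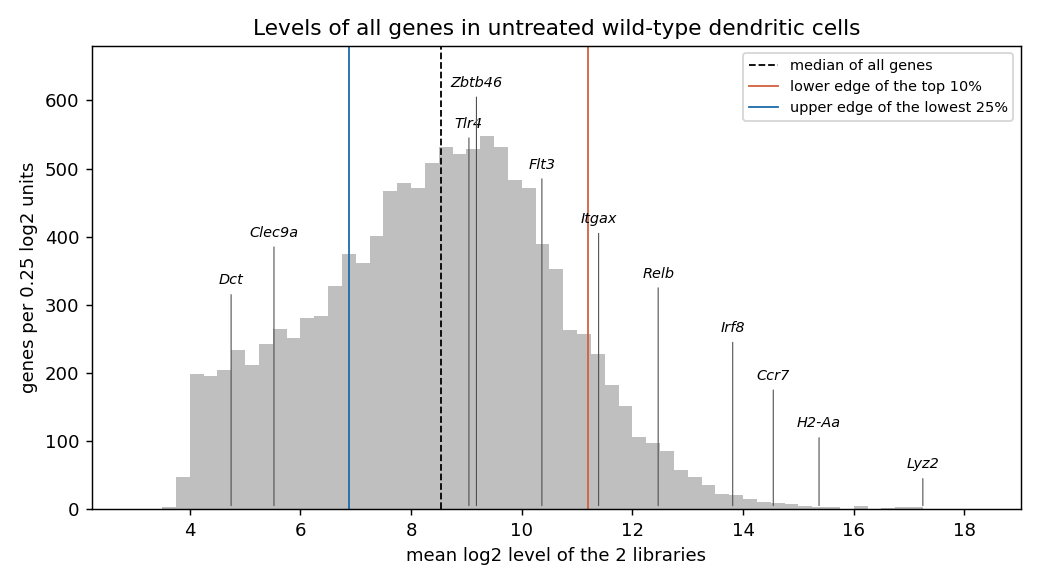
Histogram of the mean log2 level of the 2 libraries for all 11786 genes (x axis, log2 level, and y axis, genes per bin of 0.25 log2 units). The median, the edge of the top 10% and the edge of the lowest 25% are vertical lines, and some genes are marked by name. Lyz2 and H2-Aa lie far to the right of the edge of the top 10% at 11.19, while Clec9a and Dct lie in the lowest 25%.

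The libraries agreed closely. Over all genes, the difference between them had an SD of 0.14 on the log2 scale, which was 0.15 for the genes of level 6 to 7 and 0.099 for those of level 14 to 15. Of all genes, 85.7% differed by at most 0.2, 1683 differed by more, and 9 differed by more than 0.5. The correlation of both libraries across the 11786 genes was 0.998 (Pearson) and 0.998 (Spearman), given as a description of genes that share one table and one scaling. Of the 100 highest genes, 95 were the same in both libraries, and of the highest 10, 9 were the same.

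The highest deposited level belonged to Psap, at 17.54 in library 1 and 17.61 in library 2. It encodes prosaposin, the precursor of the saposins that help to break down sphingolipids in lysosomes. Lyz2, the lysozyme of myeloid cells, stood at 17.26 and 17.24. Actb, the cytoplasmic β-actin, stood at 17.18 and 17.23. Both ferritin subunits, which store iron, were among the next genes, with Ftl1 (light chain) at 17.11 and 17.30 and Fth1 (heavy chain) at 16.98 and 16.96. The nuclear noncoding RNA Malat1 stood at 16.97 and 16.77. Ftl2-ps, an annotated ferritin pseudogene at 16.75 and 16.93, is a near copy of Ftl1, and the counting could have split reads between them. Lars2, the mitochondrial leucyl-tRNA synthetase, stood at 16.49 and 16.67, and Tmsb4x, which sequesters actin monomers, at 16.59 and 16.49. Whether all reads counted for Lars2 came from its own mRNA was not tested.

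Among the remaining genes of the highest 25 were several of antigen handling. Cd74, the invariant chain that escorts MHC class II molecules, stood at 16.40 and 16.54. The lysosomal proteases Ctsb (16.17 and 16.15), Ctss (16.14 and 16.04) and Ctsd (15.73 and 15.86) were all there. Gpnmb, a glycoprotein of phagocytes and melanocytes, stood at 16.13 and 16.17, and the matrix protein thrombospondin-1 gene Thbs1 at 16.08 and 16.04. The others were Actg1, Eef1a1, Lgals3, Csf2rb, H2-Aa, Laptm5, Mpeg1, B2m and Lpl, at mean levels from 16.03 down to 15.18. The order within this group is not firm, since 13 of the 24 steps from one gene to the next were smaller than the larger SD of the pair.

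**Figure D2:**
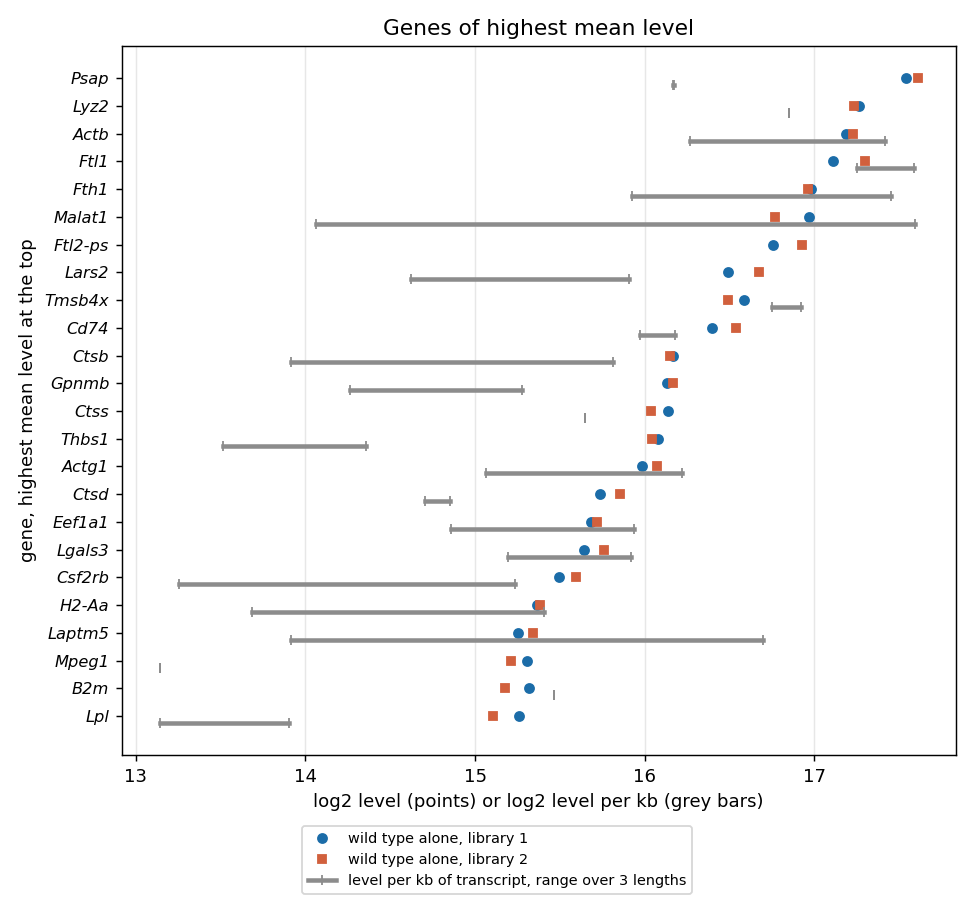
Of the 25 genes of highest mean level, 24 (y axis, highest at the top) with the log2 level of library 1 (circles) and library 2 (squares) on the x axis, and grey bars for the log2 level per kb over the 3 length choices. Psap is first at 17.54 and 17.61, and the bars of Malat1 and Laptm5 are the widest because their annotated transcripts differ most in length; Ftl2-ps had no length and has no bar.

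Length changed this order. Per kb, 16 genes were among the highest 25 under all 3 length choices. They included Ftl1, Actb, Tmsb4x, Lyz2, Fth1, Cd74, Psap, Actg1, Lgals3, Eef1a1, Ctss, B2m, Lars2, Apoe and Cst3. Ftl1 ranked first or second under each, at 17.25 to 17.58 per kb, above Lyz2 at 16.85 and Tmsb4x at 16.75 to 16.92. The cysteine protease inhibitor gene Cst3 (14.58 and 14.72 before length was taken into account) and the lipid carrier gene Apoe (14.90 and 15.08) entered through their short transcripts. Malat1 ranged from 14.06 to 17.59 per kb, and Slc6a6, the taurine transporter gene, from 11.60 to 15.07, so their places depend on the transcript assumed. For 5690 genes the length choice moved the level per kb by more than 1 log2 unit.

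Promoters of some of these genes are shown because they carry letters that the ranking did not use. The sequences are the 150 bases before the RefSeq start on the GRCm38.p6 assembly, read 5′ to 3′ on the strand of the gene, with matches to the searched motifs in capitals. ATTGG is CCAAT read on the other strand, and GGAAAG is CTTTCC read on the other strand. Ftl1 lies on the minus strand at chr7:45459887-45460036 and Lyz2 on the minus strand at chr10:117282273-117282422.
Ftl1: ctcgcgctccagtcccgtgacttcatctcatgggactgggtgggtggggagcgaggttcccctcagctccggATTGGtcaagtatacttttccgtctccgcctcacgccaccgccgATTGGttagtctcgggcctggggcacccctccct
Lyz2: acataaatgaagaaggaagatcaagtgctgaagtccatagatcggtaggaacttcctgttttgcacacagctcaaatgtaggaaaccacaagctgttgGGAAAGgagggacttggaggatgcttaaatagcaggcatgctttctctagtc
In Ftl1 the CCAAT matches began at -78 and -34 from the start, and in Lyz2 the CTTTCC match began at -52. RefSeq promoters of 250 bases before to 50 after a start were matched for 9427 of the 11786 genes. TATAAA, the core of the TATA box, was found on either strand in 12.2% of the 642 promoters of the 500 genes with the highest level per kb. It was found in 7.12% of those of the lowest 500, in 7.03% of those of all genes with a value and in 13.6% of all 32851 promoters of the table. Counted only from 40 to 16 bases before the start and on the strand of the gene, TATAAA was found in 3.27%, 1.11%, 1.08% and 1.99% in the same order. GGGCGG, the core of the GC box, was found in 63.9% of the highest, 51.7% of the lowest, 61.7% of all genes with a value and 35.7% of the whole table. CCAAT was found in 34.1%, 39.2%, 37.7% and 37.4% in the same order. A match describes the letters of the window and no factor's binding.

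Lineage markers were read next. Their lists were chosen with earlier results of these data known, so they describe the cells and cannot check their label. Of 16 genes taken as a core of dendritic cell markers, 15 had a value, 7 were in the top 10%, none was in the lowest 25% and their median level was 10.65, against 8.54 over all genes. The MHC class II chain genes H2-Aa (15.36 and 15.38), H2-Eb1 (14.87 and 15.00) and H2-Ab1 (14.52 and 14.66) stood high, as did Ccr7 at 14.48 and 14.61. Relb, the NF-kB subunit needed for mature dendritic cells, stood at 12.37 and 12.55. Itgax, which encodes the surface marker CD11c, stood at 11.38 and 11.40, and it is also on the list of alveolar-type and GM-CSF macrophages used below. Flt3, the receptor of the dendritic cell growth factor Flt3 ligand, stood at 10.32 and 10.41, and Zbtb46, a factor of conventional dendritic cells, at 9.12 and 9.25. Both lay outside the top 10%, as did Batf3 (9.90 and 10.17), Dpp4 (9.82 and 9.68), Ciita, Cd86, Cd80 and Cd40. Which cells of the mixture gave the levels of this list was not tested. Per kb, Ccr7 at 13.56 lay above Zbtb46 at 6.77 to 7.98 and above Flt3 at 8.38 to 8.49. Cd209a had no value in the table used here.

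Markers of mature migratory dendritic cells had the highest median of the dendritic cell lists. All 20 had a value, 15 were in the top 10%, 1 was in the lowest 25% and the median was 12.58. Ccl22, a chemokine that draws regulatory T cells, stood at 14.91 in both libraries. Fscn1, the actin-bundling protein of dendrites, stood at 14.14 and 14.35, and Cacnb3, a calcium channel subunit, at 14.16 and 14.30. Cd274, which encodes PD-L1, stood at 13.34 and 13.28, and Cd83 at 12.71 and 12.66. Socs2 (12.27 and 12.12), Traf1 (12.73 and 12.83) and Stat4 (12.07 and 11.98) were also in the top 10%. The 5 members outside it were Il4i1 (10.61 and 10.69), Cd200 (9.60 and 9.58), Il15ra (9.56 and 9.54), Ccl17 (8.04 and 8.20) and the tryptophan-degrading enzyme gene Ido1 (6.72 and 6.68), the one member in the lowest 25%.

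Subset markers were uneven. Of the 10 markers of type 1 conventional dendritic cells (cDC1) with a value, 2 were in the top 10% and 4 in the lowest 25%, with a median of 8.74. Irf8, the factor that cDC1 need, stood at 13.75 and 13.87, but it is also made by other myeloid cells. Naaa, the other member in the top 10%, stood at 12.1 in both libraries. Wdfy4 (10.11 and 10.25), Ppt1 (10.21 and 10.07) and Batf3 (9.90 and 10.17) lay above the median of all genes, and Tlr3 (7.58 and 7.31) below it. The surface genes were low, with Clec9a, a receptor for dead cells, at 5.53 and 5.52 and Cadm1 at 4.82 and 4.87. Itgae stood at 4.88 and 4.70 and Cd8a at 6.32 and 6.28, while Xcr1 had no value in the table used here. Of 12 markers of type 2 and monocyte-derived dendritic cells, 3 were in the top 10%. These were Ccl22, the inhibitory receptor gene Sirpa (13.62 and 13.63) and Itgam, which encodes CD11b (13.39 and 13.41). Irf4 stood at 9.79 and 9.75, Klf4 at 9.73 in both libraries, Mgl2 at 9.60 and 9.59, and Esam and Epcam at 5.77 and 5.51 on average. Per kb, Irf8 (12.02 to 13.45) lay above Irf4 (7.52). Of 10 plasmacytoid dendritic cell markers, 2 were in the top 10%, Bst2 at 12.47 and 12.63 and Irf7 at 12.03 and 12.17, both of which interferon raises in many cells. Tcf4, the factor of that lineage, stood at 10.27 and 10.14, and Ccr9 at 4.59 and 4.53, while Siglech had no value.

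Macrophage and monocyte markers also stood high. Of 23 with a value, 16 were in the top 10%, 3 were in the lowest 25% and the median was 12.13. Besides Lyz2 and Apoe they included Mpeg1, which encodes the pore-forming perforin-2, at 15.30 and 15.21, and Csf1r, the receptor gene for M-CSF, at 13.88 and 13.99. The 3 chains of complement C1q stood at 13.40 and 13.51 (C1qb), 12.17 and 12.39 (C1qc) and 12.16 and 12.35 (C1qa). Adgre1, which encodes F4/80, stood at 11.66 and 11.57, and Fcgr1 at 11.67 and 11.71. At the other end, Cx3cr1 was at 6.65 and 6.63, Vcam1 at 6.96 and 6.72 and the haemoglobin scavenger receptor gene Cd163 at 4.18 and 4.19. Among 14 markers of alveolar-type and GM-CSF macrophages, 5 were in the top 10%, led by the elastase gene Mmp12 (14.78 and 14.65) and Fabp5 (14.06 and 14.04). The alveolar factor Pparg stood at 6.76 and 6.86, Car4 at 5.33 and 5.25 and Siglecf at 4.82 and 4.95.

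Markers of other marrow lineages had lower medians, with exceptions. Of 25 neutrophil genes, 23 had a value and 5 were in the top 10%. S100a9 stood at 12.94 and 12.89, Mmp8 at 12.19 and 12.07, S100a8 at 11.93 and 11.58, the granule gene Ngp at 11.51 and 11.57 and Il1b at 11.30 and 11.21. The early granule genes Mpo (5.35 and 5.40), Elane (4.86 and 4.75) and Prtn3 (4.64 and 4.74) were in the lowest 25%, and Ly6g had no value. Of the neutrophil genes in the top 10%, Il1b is a cytokine that dendritic cells and macrophages also make. The part of neutrophils in these levels was not tested.

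The mast cell and basophil list had 4 of 14 genes with a value and none in the top 10%, led by Kit at 10.35 and 10.32 and ending with Cpa3 at 4.37 and 4.29. The eosinophil list had 5 of 9 and none in the top 10%, and its highest were the ribonuclease genes Ear2 (8.63 and 8.69) and Ear1 (8.20 and 8.14), near-identical genes between which reads could have been split. Of 13 B cell genes, 2 had a value, Cd22 at 8.13 and 8.16 and Blk at 5.02 and 5.20, and Cd79a and Ms4a1 had none. Of 18 T and NK cell genes, 3 had a value, with Cd8a and Cd4 in the lowest 25%, while the CD3 chain genes had none. Il7r, the receptor for interleukin-7, was the exception at 12.82 and 12.56. Of 17 erythroid and megakaryocyte genes, 6 had a value and 1 was in the top 10%, the platelet chemokine gene Pf4 at 11.99 and 12.09, which macrophages also express. The stroma and endothelium list had 8 of 16 genes with a value, 5 of them in the lowest 25%, with Col1a1 at 6.19 and 6.44 and Cdh5 at 4.32 and 4.37.

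Melanoma RNA was checked because dead B16-OVA cells were used in the study. Of 12 melanocyte genes, 6 had a value, and all but Gpnmb and Mitf were in the lowest 25%. Dct and Tyrp1, pigment enzymes, both stood at 4.75 in both libraries, Pmel at 5.50 and 5.48 and Slc45a2 at 3.63 in both. Among the 1849 genes below level 6, 61 had values within 0.001 of each other in both libraries. Dct, Tyrp1 and Slc45a2 were among them, with SDs of 7.4e-05, 7.3e-05 and 3.3e-05, while Pmel had an SD of 0.017. The levels of these near-equal genes need not reflect reads in these 2 libraries, which was not tested. Gpnmb and Mitf (9.97 and 9.84) are also genes of macrophages and osteoclasts. Of 11 osteoclast genes, 8 had a value and 2 were in the top 10%, Atp6v0d2 (11.80 and 11.62) and Tnfrsf11a, which encodes the receptor RANK (11.47 and 11.35). The Y-linked genes Ddx3y (10.44 and 10.24), Eif2s3y (10.07 and 9.88), Kdm5d (8.63 and 8.52) and Uty (7.84 and 7.51) all had values, and Xist had none in the table used here.

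**Figure D3:**
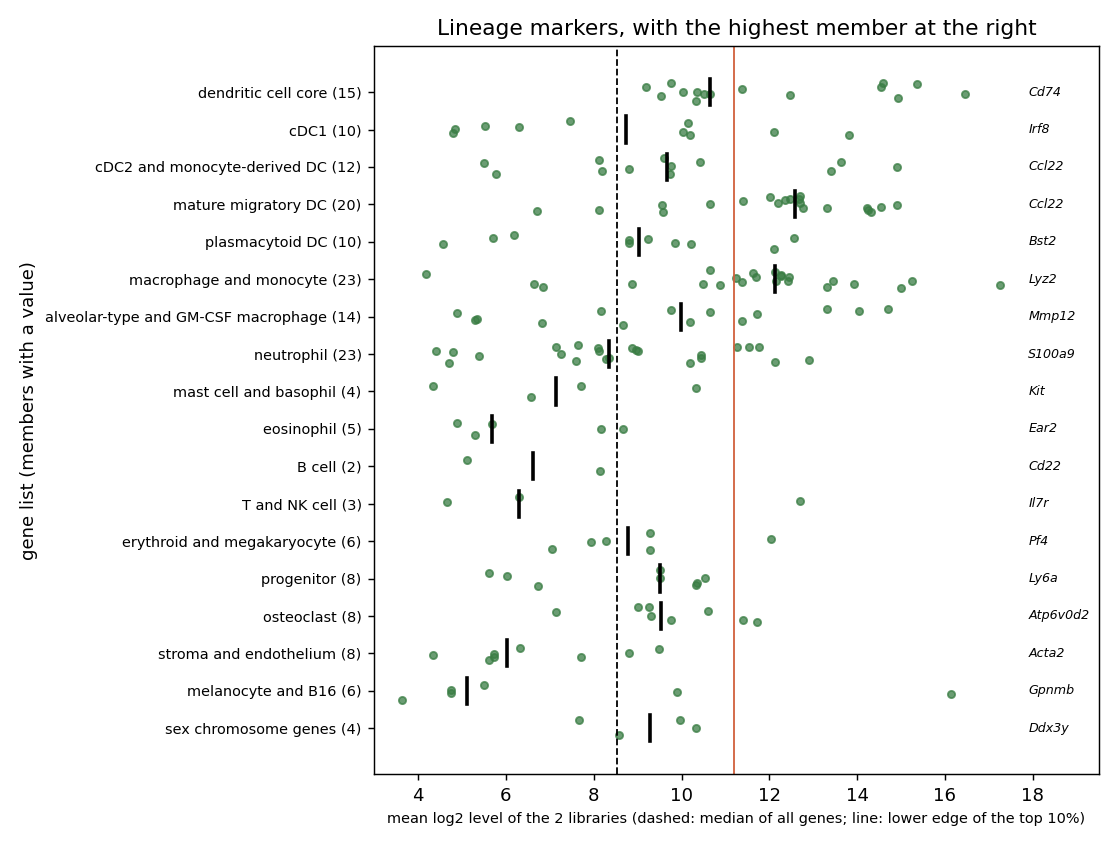
Mean log2 level of the 2 libraries (x axis) for each member with a value of 18 lineage marker lists (y axis, with the number of members), with a black bar at each list's median and the name of its highest member at the right. The mature migratory dendritic cell list (median 12.58) and the macrophage and monocyte list (median 12.13) lie to the right of the edge of the top 10% at 11.19, and the other medians lie to its left.

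Among antigen presentation genes, all 19 of the MHC class II pathway had a value, 9 were in the top 10% and the median was 10.73. Cd74, Ctss, the 3 chain genes above and Cst3 had the highest levels of the list, and the lowest were Rfxank (7.54 and 7.56), Rfxap (7.37 and 7.24), both subunits of the complex that binds class II promoters, and H2-Ob (6.09 and 6.03), a chain of the peptide exchange modulator H2-O. Ciita, the coactivator of class II genes, stood at 10.27 and 10.40. Per kb, Ciita lay at 7.75 to 8.39, below H2-Eb1 at 14.19 to 14.82, H2-Ab1 at 14.31 to 15.04 and H2-Aa at 13.68 to 15.41, whose ranges overlap one another. In the class I pathway, 22 of 24 genes had a value, 14 were in the top 10% and the median was 11.85. B2m, the light chain of class I molecules, stood at 15.32 and 15.18, and the heavy chain genes H2-D1 at 14.93 and 15.07 and H2-K1 at 14.82 and 14.98. Class I heavy chains are near-identical in sequence, and their separate levels are uncertain. Tapbp (tapasin, 13.62 and 13.75) and Calr (calreticulin, 13.43 and 13.47) help to load peptide, and the lowest level was that of Mr1, which presents vitamin metabolites, at 7.46 and 7.26.

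The promoters of H2-Aa, H2-Eb1 and B2m are shown for their CCAAT matches and, in H2-Aa, for TGACGTCA. Class II promoters carry the X2 box, which resembles the cyclic AMP response element TGACGTCA, and the Y box, an inverted CCAAT. H2-Aa lies on the minus strand at chr17:34287824-34287973, H2-Eb1 on the plus strand at chr17:34305717-34305866 and B2m on the plus strand at chr2:122147537-122147686, read in the same way.
H2-Aa: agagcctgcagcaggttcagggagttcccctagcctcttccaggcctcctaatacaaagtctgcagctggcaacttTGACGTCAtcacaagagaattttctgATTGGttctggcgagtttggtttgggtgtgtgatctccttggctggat
H2-Eb1: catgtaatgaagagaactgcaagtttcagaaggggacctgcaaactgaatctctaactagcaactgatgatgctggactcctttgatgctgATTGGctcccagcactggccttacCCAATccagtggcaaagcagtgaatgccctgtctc
B2m: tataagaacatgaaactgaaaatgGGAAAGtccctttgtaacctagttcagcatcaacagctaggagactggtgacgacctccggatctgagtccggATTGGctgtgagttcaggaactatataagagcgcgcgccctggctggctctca
The ATTGG match began at -48 in H2-Aa, at -59 in H2-Eb1 and at -53 in B2m, and the full TGACGTCA was found in H2-Aa at -74. Of 19 RefSeq promoters that belonged to 15 of the class II pathway genes, 68.4% held CCAAT on either strand, against 37.7% of promoters of all genes with a value. TGACGTCA was found in 5.26% of them, and in 3.05% of promoters of all genes with a value. The difference was not tested.

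Lysosomal proteases and their inhibitors had 19 of 20 genes with a value, 12 in the top 10% and a median of 12.54. Next to Ctsb, Ctss and Ctsd stood Ctsl at 14.21 and 14.20 and Ctsz at 14.05 and 14.14, while Ctsf was at 6.39 and 6.42 and the inhibitors Cst6 and Cst7 were at 4.40 and 4.28 on average. Of the costimulators and coinhibitors, 18 of 20 had a value and 4 were in the top 10%, namely Cd274, Cd83, Slamf7 (12.08 and 11.99) and Vsir, which encodes the inhibitor VISTA (12.00 and 12.07). Of the costimulators proper, Cd86 stood at 10.73 and 10.56, Cd80 at 10.53 and 10.47 and Cd40 at 9.54 and 9.53. Per kb, the ranges of Cd274 (11.45) and Cd83 (11.38 to 11.47) lay above those of Cd86 (9.30 to 10.95), Cd80 (8.83 to 9.73) and Cd40 (7.96 to 10.12).

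Receptors as a class, 222 distinct genes with a value, had a median level of 10.17, with 72 in the top 10% and 29 in the lowest 25%. Among Toll-like receptors and their partners, 4 of 19 were in the top 10%. Ranked per kb, 2 were there with the median transcript length and 4 with RefSeq-matched transcripts. Unc93b1, which carries the nucleic acid sensing receptors to endosomes, stood at 13.19 and 13.38, and Cd14, the co-receptor for lipopolysaccharide, at 12.39 and 12.47. Tlr13, a sensor of bacterial ribosomal RNA, stood at 11.57 and 11.42 and Tlr2, for bacterial lipopeptides, at 11.40 and 11.38. Tlr4, for lipopolysaccharide, was at 9.12 and 8.97, Tlr7 at 9.97 and 9.74, Tlr9 at 8.77 and 8.83, Tlr3 at 7.58 and 7.31 and Tlr5 at 5.41 and 5.36. Per kb, Tlr2 (9.80) lay above Tlr4 (7.02 to 8.72), while the ranges of Tlr13 (9.48 to 10.36) and Tlr2 overlapped.

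Of 24 C-type lectin receptors with a value, 3 were in the top 10%. Ranked per kb, 4 were there with the median transcript length and 7 with RefSeq-matched transcripts. The 3 by level were Clec4n, which encodes Dectin-2 (13.25 and 13.14), Clec7a, which encodes Dectin-1 (13.23 and 12.96), and Clec4d (12.56 and 12.41), all receptors for microbial glycans or glycolipids. The mannose receptor gene Mrc1 stood at 10.96 and 10.82, Ly75, which encodes DEC-205, at 10.64 and 10.55, and Cd207, which encodes langerin, at 5.54 and 5.59. All 22 cytosolic sensors and inflammasome genes had a value and none was in the lowest 25%, but only 2 were in the top 10%, Gsdmd (11.68 and 11.81), whose product forms the pore of pyroptosis, and Nlrp3 (11.52 and 11.57). Their levels were packed between 7.89 and 11.75, with Cgas (7.98 and 7.80) lowest and Sting1 at 9.27 in both libraries.

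Receptors of uptake had higher median levels. Of 16 Fc and complement receptor genes, 10 were in the top 10% and the median was 11.67. Itgb2 (13.32 and 13.42) and Itgam together encode complement receptor 3, and the IgG receptor genes Fcgr3 (12.80 and 12.75) and Fcgr2b (12.71 and 12.63) stood beside the gene of their signalling chain, Fcer1g (12.62 and 12.54). Fcgr4 stood at 10.24 and 10.25. Of 24 scavenger and dead-cell uptake genes, 9 were in the top 10%. Mfge8, which bridges dying cells to integrins, stood at 14.19 and 14.38, Lrp1 at 12.92 and 13.07, Axl at 12.55 and 12.57 and Cd36 at 12.31 and 12.09. Of the other kinases that sense dying cells, Mertk stood at 10.50 and 10.46 and Tyro3 at 5.96 and 6.15, and per kb the range of Tyro3 (3.90 to 6.65) lay below those of the other two (8.37 to 8.66 for Mertk and 10.46 to 13.09 for Axl).

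Chemokine receptors were split. Of 14 with a value, 5 were in the top 10% and 6 in the lowest 25%, and 9 of the 23 listed had no value in the table used here. Per kb, Ccr7 at 13.56 lay above Ccr1 (10.14), Cxcr4 (10.63 to 11.04) and Ccr2 (8.71 to 9.65). Before length, Ccr1 stood at 11.72 and 11.56, Cxcr4 at 11.52 and 11.44 and Ccr2, the receptor by which monocytes leave the marrow, at 11.39 and 11.07. Cxcr5, Ackr3, Ccr9, Ccr4 and Cxcr3 lay between 4.29 and 5.34, and Cx3cr1 just below the edge of the lowest 25%.

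Cytokine and growth factor receptors had 42 of 46 genes with a value, 17 in the top 10% and 6 in the lowest 25%. Csf2rb, the signalling chain of the GM-CSF receptor, stood at 15.50 and 15.60, its close relative Csf2rb2, a chain of the interleukin-3 receptor, at 14.83 and 14.91, and the GM-CSF binding chain gene Csf2ra at 11.97 and 12.23. Per kb, Csf2ra at 10.91 to 12.12 lay below Csf2rb at 13.26 to 15.24, and reads could have been split between Csf2rb and Csf2rb2. Tnfrsf1b, a receptor for TNF, stood at 13.40 and 13.44, and Il4ra at 12.60 and 12.73. Tnfrsf9, which encodes the costimulatory receptor 4-1BB, stood at 12.75 and 12.74, Il21r at 12.09 and 12.18 and Il10ra at 12.02 and 12.10. The interferon receptor genes were Ifngr1 at 11.63 and 11.59, Ifnar1 at 11.37 and 11.32, Ifngr2 at 11.10 and 11.07 and Ifnar2 at 10.70 in both, while Ifnlr1, for type III interferon, was at 6.65 and 6.58. Il1r1, the signalling receptor for interleukin-1, stood at 5.94 and 5.71, and the decoy receptor gene Il1r2 at 11.41 and 11.37. Per kb, the decoy (10.89 to 11.53) lay above the signalling receptor (3.29 to 3.55).

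In the list of the GM-CSF receptor and its signalling, which holds the receptor chains too, all 18 genes had a value and 10 were in the top 10%, with a median of 11.21. Jak2, the kinase bound to the common chain, stood at 13.66 and 13.53, and Stat5a (10.02 and 10.12) and Stat5b (10.12 and 10.26) encode the factors it phosphorylates. The survival gene Mcl1 stood at 13.73 and 13.63 and the kinase gene Pim1 at 12.97 and 13.02. The feedback inhibitors of the SOCS family ranged from Socs2 at 12.27 and 12.12 through Socs3 (8.99 and 9.12) and Cish (8.33 and 8.50) to Socs1 (6.94 and 7.14). Csf2, which encodes GM-CSF itself, had no value in the table used here.

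Of 28 inhibitory and activating paired receptors with a value, 7 were in the top 10%. Lilrb4a (13.75 and 13.70) and Pirb (13.24 and 13.32) are inhibitory, and Tyrobp (13.24 and 13.29) encodes the adaptor DAP12 that serves activating receptors. Pira2 and Pirb are near-identical genes. Trem2, a DAP12 partner that binds lipids, stood at 11.74 and 11.97, and Trem1 at 9.83 and 9.86. Of 26 integrin and adhesion genes, all with a value, 12 were in the top 10%, among them Selplg (12.96 and 13.15), Cd44 (13.09 and 12.99), Itgb1 (13.03 and 12.90) and Itga4 (13.02 and 12.82). Icam2 was at 4.87 and 5.02.

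Cytokine genes had the lowest median of these classes on the deposited scale, which does not correct for length. Of 66 distinct cytokine genes with a value, the median level was 8.15, with 15 in the top 10% and 20 in the lowest 25%, against medians of 10.17 for receptors and 10.32 for transcription factors. Of the 15, 7 were from the chemokine lists, 6 from the list of interferons and growth factors and 2 from that of interleukins and antagonists. Ccl22 was described above, and Ccl5, which attracts T cells, stood at 13.91 and 13.98, Ccl9 at 13.97 and 13.91 and Ccl6 at 13.82 and 13.65. Per kb, Ccl5 (14.53 to 14.86) and Ccl22 (13.76 to 14.52) lay above Ccl3 (10.68), Ccl17 (9.08), Ccl4 (8.68) and Ccl2 (7.59 to 8.02). Ccl3 stood at 10.30 and 10.29, Ccl4 at 8.02 and 8.14, Ccl2 at 7.66 and 7.78 and Ccl12 at 3.92 and 4.00. Ccl17 and Ccl22 bind the same receptor, and their ranges per kb did not overlap. Among CXC and other chemokines, Cxcl16 stood at 13.76 and 13.85, Cxcl2, which attracts neutrophils, at 12.71 and 12.70, and the interferon-induced Cxcl10 and Cxcl9 at 8.99 and 8.96 and at 4.65 and 4.70.

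Of 29 interleukins and antagonists, 14 had a value and 2 were in the top 10%, and 1 of them remained there when genes below level 6 were left out. The 2 were Il1rn, the antagonist of the interleukin-1 receptor, at 11.96 and 11.79, and Il1b. Il12b, the p40 chain of interleukins 12 and 23, stood at 10.74 and 10.60, while Il12a and Il23a, its partner chains, had no value in the table used here. Il15 stood at 9.29 and 9.09, Il6 at 7.16 and 7.10, Il10 at 5.95 and 6.03 and Il27 at 4.29 and 4.31. Per kb, Il12b (9.71 to 9.77) lay above Il6 (5.90 to 7.29), Il1a (6.66) and Il10 (5.60). Of 11 TNF family genes with a value, none was in the top 10% and 7 were in the lowest 25%. Tnfsf4, which encodes the T cell costimulator OX40 ligand, stood at 9.70 and 9.61, Tnf at 7.34 and 7.42, and the B cell factors Tnfsf13b and Tnfsf13 at 5.36 and 5.00 and at 4.55 and 4.54.

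Of 30 genes listed as interferons and growth factors, 21 had a value and 6 were in the top 10%. Ranked per kb, 5 were there with the median transcript length and 9 with RefSeq-matched transcripts. Besides Thbs1 the 6 by level were Grn (14.18 and 14.32), Vegfa (12.82 and 12.95), Tgfbi (12.80 and 12.81), Tgfb1 (11.28 and 11.46) and Osm (11.24 and 11.34). Grn encodes progranulin, a lysosomal and secreted protein, and Vegfa the main growth factor of blood vessels. The interferon genes Ifnb1 and Ifng had no value in the table used here. Flt3l, the ligand of Flt3, stood at 6.80 and 6.92 and Csf1 at 8.80 and 8.75.

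Transcription factors, 100 distinct genes with a value, had a median of 10.32, with 34 in the top 10% and 8 in the lowest 25%. Of 40 lineage factors, 14 were in the top 10%. Ranked per kb, 10 were there with the median transcript length and 10 with RefSeq-matched transcripts. Besides Irf8 the 14 by level included Bhlhe40 at 13.46 and 13.52, Klf6 at 13.54 and 13.35 and Id2, which dendritic cells need to develop, at 13.11 and 12.95. Spi1, which encodes the myeloid master factor PU.1, stood at 10.89 and 11.12, below the edge of the top 10%, with Runx1 at 10.48 and 10.47, Batf3 at 9.90 and 10.17, Cebpa at 9.53 and 9.59 and Cebpb at 9.07 and 9.34. Per kb, Spi1 (9.98 to 11.80) lay above Cebpa (8.17 to 8.30) and Cebpb (8.61). The progenitor factors Myb (6.77 and 6.71) and Cebpe (5.53 and 5.72) were in the lowest 25%, and Gfi1, Gata1, Pax5 and Ebf1 had no value. The progenitor marker list as a whole had 8 of 13 genes with a value, 0 in the top 10%, 3 in the lowest 25% and a median of 9.51. Its factor Sox4 stood at 9.43 and 9.59, and its highest member was Ly6a, at 10.54 on average.

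Signal-driven factors had higher median levels, before length is taken into account. Of 29 NF-kB, AP-1 and stress factors, 14 were in the top 10% and the median was 11.06, but ranked per kb with the median transcript length 7 were in the top 10%, and with RefSeq-matched transcripts 12. Fos stood at 13.12 and 13.16, Nfkbia, the inhibitor that NF-kB itself induces, at 12.90 and 12.96, and Junb at 12.30 and 12.70. Of the NF-kB subunits, Relb and Nfkb2 (12.36 and 12.58), which form the noncanonical dimer, stood beside Nfkb1 (11.44 and 11.52), Rel (11.49 and 11.34) and Rela (10.98 and 11.14). Per kb, Relb (10.75 to 11.33) and Nfkb2 (10.53 to 10.93) lay above Nfkb1 (9.43 to 10.02) and Rel (8.51), while the range of Rela (9.62 to 11.41) overlapped those of Relb, Nfkb2 and Nfkb1. Jun stood at 9.36 and 9.49, Myc at 7.34 and 7.40 and Bach2 at 4.96 and 5.00.

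All 15 IRF and STAT genes with a value stood above level 9, and 8 were in the top 10%, with a median of 11.90. Stat3 stood at 12.63 and 12.71, Stat2 at 12.27 and 12.31, Irf5 at 12.22 and 12.28 and Irf7 at 12.03 and 12.17. Stat2 and Irf9 (10.72 and 10.70) are part of the complex that answers type I interferon. Irf3, which starts interferon production, stood at 9.41 and 9.59. None of 19 nuclear receptors was in the top 10% by level. Ranked per kb, 2 were there with the median transcript length and 0 with RefSeq-matched transcripts. Nr4a1 (10.71 and 10.80) and the LXRβ gene Nr1h2 (10.56 and 10.79) led, the vitamin D receptor gene Vdr stood at 10.37 and 10.32, and the LXRα gene Nr1h3 stood at 7.72 and 7.83.

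**Figure D4:**
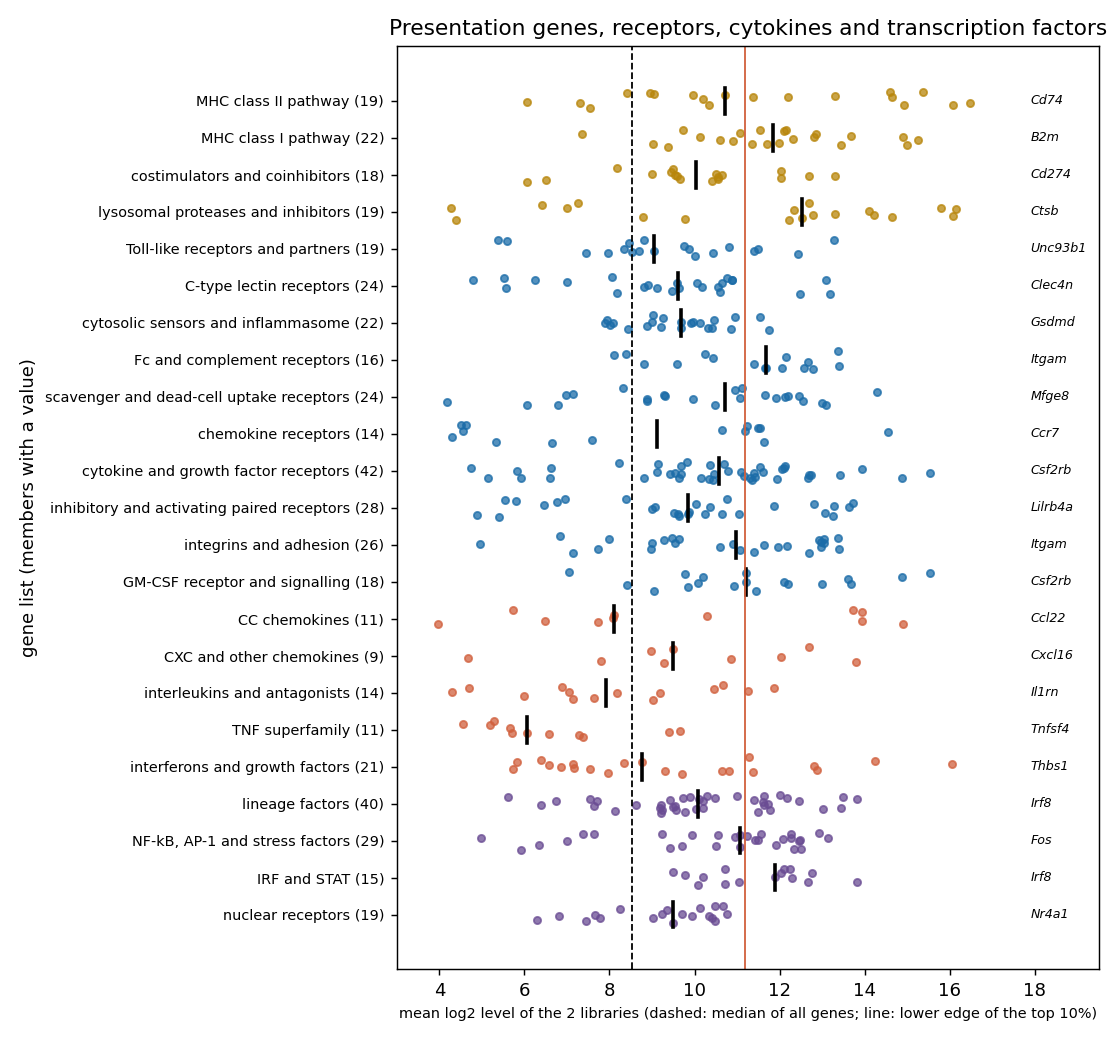
Mean log2 level of the 2 libraries (x axis) for each member with a value of 23 lists of presentation genes, receptors, cytokines and transcription factors (y axis, with the number of members, 1 colour per class), with a black bar at each list's median and the name of the highest member at the right. The medians of the IRF and STAT list (11.90) and of the lysosomal protease list (12.54) lie right of the edge of the top 10%, while those of CC chemokines (8.12), interleukins (7.92) and the TNF family (6.05) lie left of the median of all genes.

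Lists of cell machinery and of lipid handling also had many members in the top 10%. The shares given for the actin and lipid lists include genes of the highest 25 named above. Of 33 actin and migration genes, 29 were in the top 10%, with a median of 12.83, and they held 4.14% of the summed linear level. Behind both actins stood Myh9, a nonmuscle myosin, at 15.00 and 15.16, Fscn1 and Vim at 14.13 and 14.15. Of 77 cytosolic ribosomal protein genes with a value, 71 were in the top 10%, with a median of 12.23, and they held 3.14%. Their levels are uncertain because many pseudogene copies could share their reads. The list of lipid handling held 3.57%. Its 6 highest levels were those of Psap, Ctsd, Lgals3, Lpl, which encodes lipoprotein lipase (15.26 and 15.11), Apoe and Npc2, a lysosomal cholesterol carrier (14.62 and 14.72). The protease gene Ctsd (0.41%) and the galectin gene Lgals3 (0.38%) are counted in this share although they also belong to the protease and galectin lists. Of 21 galectin, annexin and S100 genes, 16 were in the top 10%, with Lgals3 (15.64 and 15.76), Anxa1 (13.78 and 13.74) and S100a4 (13.37 and 13.39) highest.

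Cycling genes had a median below that of all genes, with a wide spread. Of 23 proliferation genes with a value, 2 were in the top 10% and 11 in the lowest 25%, with a median of 7.40. Tubb5 (12.46 and 12.53) and H2az1 (11.96 and 11.88), which resting cells also make, led. Mki67, the common marker of cycling cells, stood at 9.22 and 9.14, above the median of all genes, and was named after its values were seen. The mitotic genes Bub1 (4.70 and 4.62), Ccnb2 (4.40 and 4.49) and Ube2c (4.31 and 4.38) were the lowest. The 19 m6A genes all had a value, with a median of 9.51 and 2 in the top 10%, Hnrnpa2b1 (13.21 and 13.06) and Hnrnpc (11.42 and 11.32). Igf2bp1 was the lowest at 3.94 and 3.93. Ythdf1, the gene deleted in the other genotype of the study and likewise chosen after its values were seen, stood at 9.58 and 9.43 in these wild-type libraries.

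The genes that differed most between the libraries were few and of modest level. An identifier without a symbol came first, at 9.44 in library 1 and 10.25 in library 2. Zfp984 stood at 9.94 and 9.28, Zfp942 at 7.47 and 6.85, Zfp51 at 7.45 and 6.91, Zfp758 at 6.97 and 6.46 and Zfp934 at 6.02 and 5.52, so that 5 of the 10 largest differences were numbered zinc finger genes, all higher in library 1. Zbed5 (8.95 and 9.56) and Ppp1r35 (6.54 and 7.09) were higher in library 2. Of all 282 numbered Zfp genes, 191 (67.7%) were higher in library 1, against 49.2% of all genes, with a median difference of 0.073. Of 77 ribosomal protein genes, 62 were higher in library 2, with a median difference of -0.062. Of 22 MHC class I genes, 18 were higher in library 2, and of 24 C-type lectin receptor genes, 19 were higher in library 1. All 4 Y-linked genes were higher in library 1, with a median difference of 0.20. These shifts were small beside the 14.07 units that the levels spanned, and what moves with them was not tested.

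**Figure D5:**
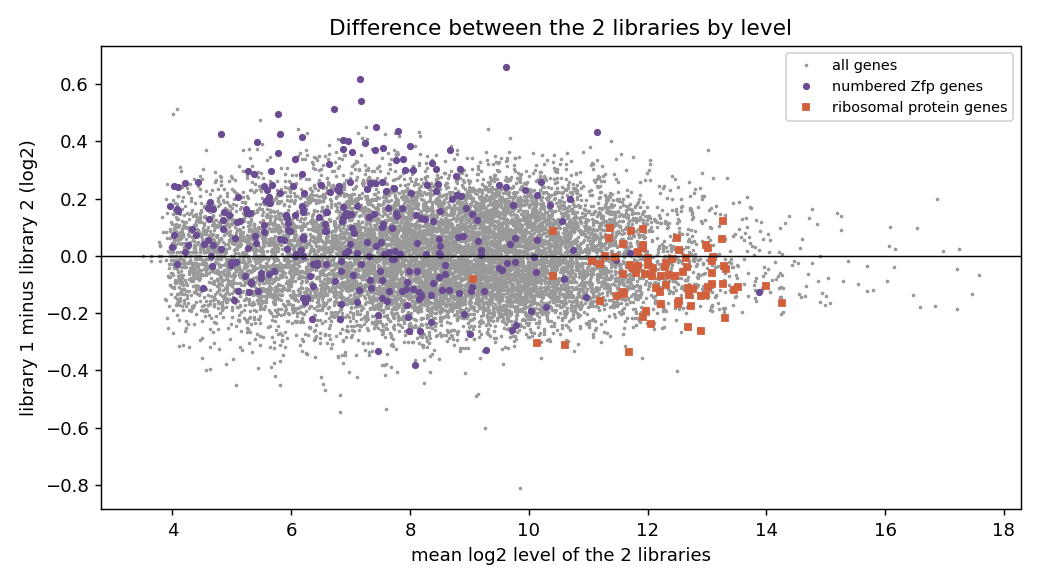
Level of library 1 minus level of library 2 (y axis, log2) against the mean log2 level of both (x axis) for all 11786 genes, with 282 numbered Zfp genes and 77 ribosomal protein genes in colour. Most points lie within 0.2 of zero, the Zfp genes lie more often above the line (191 of 282) and the ribosomal protein genes more often below it (62 of 77).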

How the data were processed

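RNA of the 2 untreated wild-type libraries was read from 1 deposited table of log2 levels per Entrez gene. That the authors made these log2 values from counts with the regularized logarithm of DESeq2 is inferred from the table's name and the submitters' processing notes, which name STAR, deepTools, DESeq2 and the build mm9 without versions. The counter, its strand setting, the annotation and the gene filter are not stated in the labels or notes used here. Depth is unknown, so no counting error could be given. The 6 columns of other groups were not used, and 0 columns lacked a sample.

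Genes were ranked by the mean of both columns with Python 3.11.15, numpy 2.4.6 and pandas 2.3.3, and drawn with matplotlib 3.10.9. Symbols, gene order and promoters came from RefSeq on GRCm38.p6, and lengths, for 97.5% of genes, from GENCODE transcripts. The ranking code was run on simulated counts drawn from these levels, without the pull towards other libraries and without reads shared between genes. That run checked the code and not the ranks given here. Genes named are the 25 highest by level and per kb, the 10 largest differences between libraries, all members of lineage, receptor, cytokine and transcription factor lists, and the 6 highest and 3 lowest members of other lists. Only part of the genes this rule allows are named, and a few results are not reported here. Members and lists were chosen with earlier results of these data known. Near-identical, overlapping and antisense genes are uncertain. Alternatives were each library alone, quantile normalization, a filter at level 6, other lengths, protein-coding genes only and groups of 200.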

Additional observations from a re-analysis of the deposited data

How the results depend on the processing

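The share of the summed level held by the highest 100 genes, 26.9%, ranged from 26.6% to 27.1% with either library alone, and the share per kb, 28.9%, from 28.8% to 29.1%. With 2 libraries such a shift is smaller than their SD by construction. The share per kb moved to 36.1% with the longest transcript and to 35.1% with RefSeq-matched transcripts, an alternative chosen after seeing the data. The GENCODE median counts short fragments of transcripts, but the cause was not tested. The share of promoters with TATAAA among the highest genes moved from 12.2% to 16.1% in groups of 200, and the cause was not tested. Of 833 listed genes, 355 were in the top 10%, 352 to 353 with either library alone. Single lists moved as given beside them, and 1 progenitor gene entered the top 10% with RefSeq-matched transcripts. Quantile normalization moved 8 of 838 named levels by more than their SD. No paired analysis was possible because 1 group was described and no test was run. Without counts, depth limits the lowest levels by an unknown amount.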

Other observations

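Some of the highest genes lay side by side on the chromosomes. Among 1155 protein-coding genes of the top 10%, 25.5% had a gene of the top 10% as direct neighbour in the RefSeq order of genes with a value, against 19.0% of all 11440, a difference that was not tested. Among the highest 118 genes, 9 pairs were direct neighbours. The pairs were Actb with Fscn1, Ccl5 with Ccl9, Ccl6 with Ccl9, Csf2rb with Csf2rb2, H2-Aa with both H2-Ab1 and H2-Eb1, Lilr4b with Lilrb4a, Lyz2 with Lyz1 and Prdx1 with Akr1a1. Of these, Lyz2 and Lyz1, Csf2rb and Csf2rb2, and Lilr4b and Lilrb4a are near-identical genes. The genes outside the naming rule in this section were chosen after their values were seen.

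Genes of high level had shorter annotated coding lengths by median. Protein length was taken as the median coding length over all GENCODE transcripts of a gene with a coding part. Short fragments were counted too, so the residue numbers may understate the full proteins. The median protein length was 215.5 residues for the 500 genes of highest level per kb and 516.5 for the lowest 500, against 321 over all genes, but that ranking divides by transcript length. Ranked by the deposited level, which does not, the medians were 264 and 357.

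Ribosomal protein promoters held CTTTCC, a pyrimidine-rich run, in 49.2% of 65 promoters, against 26.4% of promoters of all genes with a value. These promoters belonged to 56 of the 77 genes. The share was also above 26.4% in 45 promoters of lineage factors (42.2%), 18 of macrophage and monocyte genes (38.9%) and 8 of CC chemokines (37.5%). It was 27.8% in 18 promoters of Toll-like receptors and partners and 15.8% in 19 of the MHC class II pathway. The differences were not tested.

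Common reference genes spanned much of the scale. Actb stood at 17.18 and 17.23 and Gapdh at 10.72 and 10.80. Tbp was at 7.70 and 7.44. Gapdh has many pseudogene copies that could share its reads, and its level per kb ranged from 9.04 to 11.58 over the 3 length choices.

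No gene of the mitochondrial genome had a value in the table used here. Of the 148 noncoding RNA genes annotated as lncRNA, 5 were in the top 10%, with a median level over all 148 of 5.53 against 8.59 for 11440 protein-coding genes.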
